A study of Mus musculus with 8 samples.

Results

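Mitochondrial ribosomal protein (MRP) genes were described in inguinal white adipose tissue (ING WAT) of mice at weaning, on postnatal day 21 (PN21), and in young adulthood, on postnatal day 98 (PN98). The members were taken by symbol, as all genes whose name starts with *Mrpl* or *Mrps* followed by a number, with pseudogenes left out. This gave 76 genes, 47 named for the large and 29 for the small subunit, out of 38380 genes with a summed value. Poly(A)+ RNA had been sequenced from the inguinal depot of 4 mice per age, with 1 library per mouse. The labels number the PN21 mice m1, m49, m138, m145 and the PN98 mice m35, m106, m114, m125. All mice were C57BL/6j, and the labels name no genetic modification or treatment. By the study's methods, dams were fed the purified diet AIN93G, the pups went on with it after weaning, the adult mice then received AIN93M or a western style diet (WSD), and all mice were fasted for some hours before dissection. Which of these 2 diets each sequenced PN98 mouse had received was not given in the sources used here, so that age and diet cannot be told apart. The Y-linked genes *Ddx3y*, *Eif2s3y*, *Kdm5d* and *Uty* were above 0 in all 8 mice. *Xist*, the RNA of the inactive X chromosome, lay between 0.247 and 0.832 FPKM at PN21 and between 0 and 0.00704 FPKM at PN98.

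The mitochondrial ribosome (mitoribosome) translates the few proteins that are encoded by mitochondrial DNA, all of them subunits of the oxidative phosphorylation (OXPHOS) complexes. Its RNAs come from mitochondrial DNA, whereas its proteins are encoded in the nucleus, made in the cytosol and imported. The small subunit holds the messenger RNA and the decoding site, and the large subunit joins the amino acids and releases the growing chain at the inner membrane. In adipose tissue, mitochondria are most abundant in brown and beige adipocytes.

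An FPKM value is a number of sequenced fragments scaled to the length of the transcript and to all mapped fragments of the library, and the values of a gene's own transcripts were summed. Depth is unknown, as the values come without read counts, and counting errors could not be computed. Over all genes, FPKM summed to between 1872779 and 2997618 at PN21 and between 1558306 and 1736101 at PN98. *Adipoq*, the gene of the adipocyte hormone adiponectin, had 817 to 1279 FPKM at PN21 and 2512 to 3653 FPKM at PN98, and the summed level of 8 adipocyte markers lay between 14869.5 and 30631 FPKM at PN21 and between 37403 and 56947 FPKM at PN98. The mice of 1 age differed in other markers. The summed level of 10 lymphocyte markers was 955 FPKM in PN98 mouse m35 against 20.1 to 179.8 FPKM in the other PN98 mice, and at PN21 it was highest in m138, with 1067 FPKM against 439.9 to 843 FPKM. Results are therefore also given without m35 and m138. Throughout, values per mouse are given in the order m1, m49, m138 and m145 for PN21 and m35, m106, m114 and m125 for PN98. In bulk tissue, fewer cells of a type and less RNA per cell cannot be told apart.

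All 76 MRP genes were expressed. Mean FPKM over the 8 mice was above 100 in 13 genes, between 10 and 100 in 62 and below 10 in 1, so that every member passed the filter of a mean FPKM of at least 1. The median level was 45.5 FPKM for the large and 63.5 FPKM for the small subunit, against 10.4 FPKM over all 16111 genes tested. *Mrps21*, of the small subunit, stood highest, with 362, 402, 265 and 569.6 FPKM at PN21 and 324, 255, 348 and 416 FPKM at PN98. It was followed by *Mrpl2*, a core protein of the large subunit, with 346, 333, 226 and 448 FPKM at PN21 and 190.5, 221, 257 and 288 FPKM at PN98. *Mrpl18*, a protein of the central protuberance of the large subunit, had 214 to 355 FPKM at PN21 and 158 to 243 FPKM at PN98, *Mrpl17* had 129 to 237 FPKM at PN21 and 128 to 187 FPKM at PN98 and *Mrpl33* had 121 to 342 FPKM at PN21 and 113 to 164 FPKM at PN98. The values of the 2 ages overlapped in all 5. The 3 lowest members were *Mrpl35*, *Mrpl1* and *Mrpl11*, and they lay far below, with means over the 8 mice of 6.98, 10.1 and 14.4 FPKM. Although all these proteins are built into the same particle, their summed transcript levels thus spanned from 6.98 to 368 FPKM on the same scale per length.

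Most MRP genes had a lower mean at PN98 than at PN21, but no single gene passed the test. The log2 fold change, PN98 minus PN21 on log2(FPKM + 1), was below 0 in 72 of 76 genes (94.7%), against 67.0% of all genes tested. Its median was −0.45 over the MRP genes and −0.21 over all genes, with 66 of 76 MRP genes below the latter value. With limma and Benjamini-Hochberg (BH) adjustment over all 16111 genes, 0 MRP genes were lower and 0 higher with an adjusted *p* under 0.05, whereas 2.93% of all genes were called lower and 2.35% higher. At an unadjusted *p* under 0.05, 27 MRP genes (35.5%) were lower and 0 higher, against 19.0% and 8.18% of all genes. All 4 PN98 mice lay below all 4 PN21 mice in 16 MRP genes (21.1%; 10.01% of all genes) and above them in 0 (6.06% of all genes). The 16 were *Mrpl1*, *Mrpl3*, *Mrpl4*, *Mrpl15*, *Mrpl19*, *Mrpl23*, *Mrpl24*, *Mrpl37*, *Mrpl43*, *Mrpl44*, *Mrpl45* and *Mrpl52* of the large and *Mrps2*, *Mrps5*, *Mrps22* and *Mrps27* of the small subunit, of which those outside the rule for named genes are listed after their values were seen.

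How far the family stood apart from all genes depended on single mice. Without m35, the MRP median was −0.36 against −0.27 over all genes, with 47 of 76 genes below the latter, and 20 MRP genes (26.3%) were lower at an unadjusted *p* under 0.05 against 30.5% of all genes. The share of the family was thus above that of all genes with m35 and below it without m35. Without m49 the count was 15 (19.7% against 15.02%) and without m138 45 (59.2% against 14.5%). The median was −0.37 against −0.22 over all genes without m49, and −0.36 against −0.22 without m145. It lay below that of all genes with each mouse left out in turn.

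The number of adjusted calls depended on single mice as well. With limma's arrayWeights, which give less weight to mice that stand apart, 26 MRP genes (34.2%) were lower with an adjusted *p* under 0.05, against 21.7% of all genes in the same fit, and 0 were higher. Without m35, 2 MRP genes (2.63%) were called lower, *Mrpl19* and *Mrpl24*, against 18.1% of all genes. Without both m35 and m138, 3 (3.95%) were called lower, *Mrpl12*, *Mrps22* and *Mrpl37*, against 9.37% of all genes, and 36 (47.4%) were lower at an unadjusted *p* under 0.05 against 27.8%. In that fit the log2 fold change was below 0 in 73 of 76 genes (96.1% against 67.4%), with a median of −0.49 against −0.25. *Mrpl19*, *Mrpl24* and *Mrpl37* lie outside the rule for named genes and were named after their values were seen. When each transcript was tested on its own on log2 FPKM, the own transcript with the lowest *p* was lower with an unadjusted *p* under 0.05 in 29 MRP genes and higher in 0, a choice that raises such counts and gave 21.8% of 13218 genes lower, and 0 passed the adjustment over 23178 transcripts (lowest BH-adjusted *p* with limma 0.0683).

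**Figure D1:**
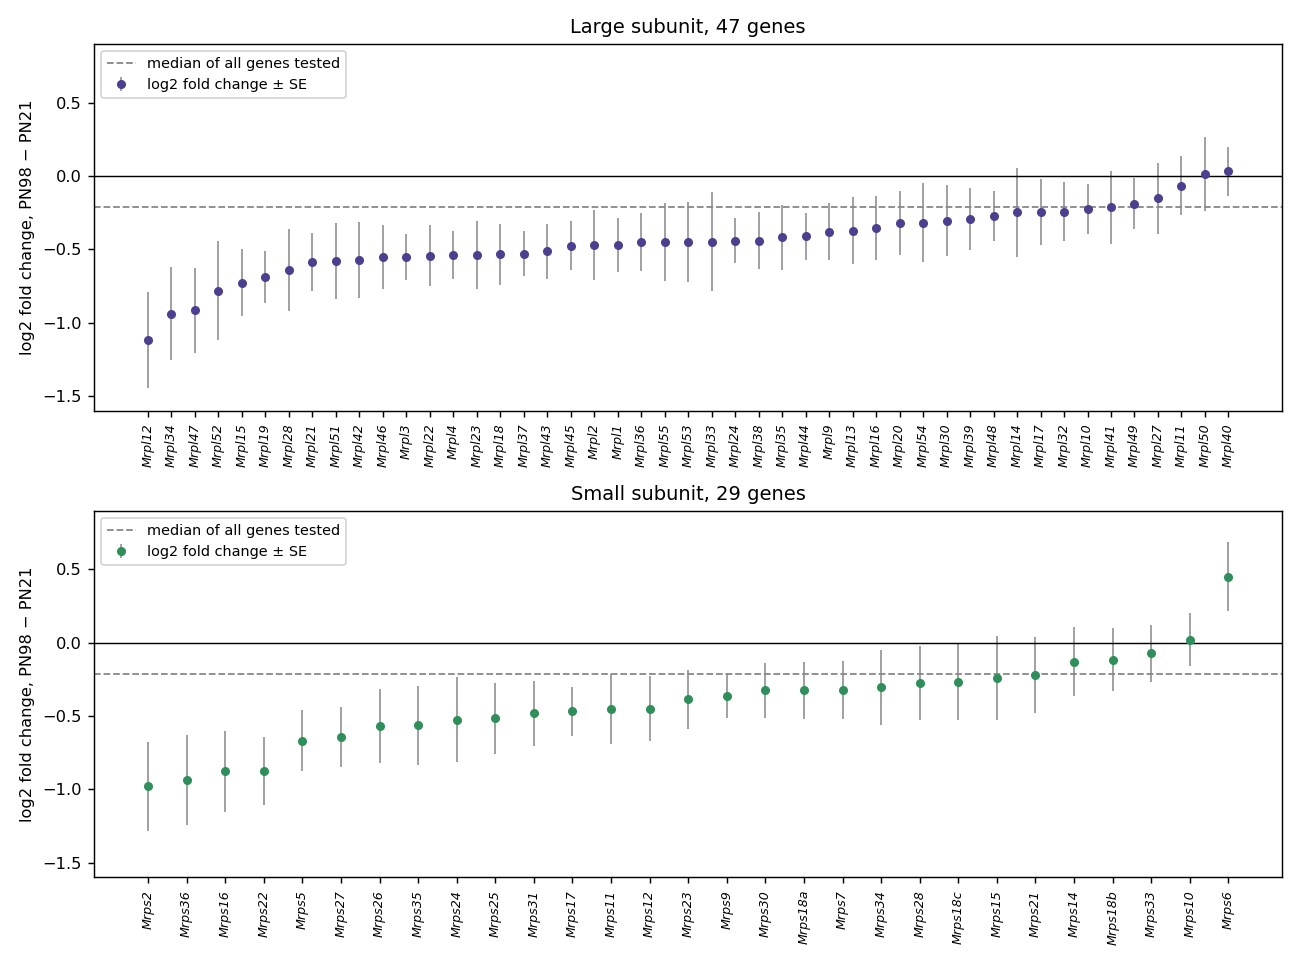
Log2 fold change (PN98 minus PN21, y axis) with its standard error (bars) of each of the 47 large subunit genes (upper panel) and 29 small subunit genes (lower panel), in order of size on the x axis. Points lie below 0 in 72 of 76 genes, most of them also below the median of all genes tested (dashed line, −0.21), and *Mrps6* stands apart at 0.45.

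The size of the difference depended on the scale of the libraries. All genes together were shifted by −0.21 in the values as deposited. When the mice were scaled by the median of ratios over genes above 0 in all mice, the median of all genes was −0.017, and 63 of 76 MRP genes had a log2 fold change below 0 (82.9% against 51.3% of all genes) with a median of −0.22. When the FPKM of all nuclear genes was brought to the same sum in each mouse, the corresponding values were 58 of 76 (76.3% against 48.3%) and −0.17, with a median of all genes of 0.023. The MRP median thus stayed below that of all genes on each of the 3 scales. The unadjusted calls did not stay: 0 MRP genes were lower at an unadjusted *p* under 0.05 with median of ratios scaling (11.6% of all genes) and 3 with scaling to nuclear genes (8.66% of all genes). With either scaling, 1 MRP gene, of the small subunit, was higher at this threshold. Of all genes, 2210 of 16065 were higher with the former scaling and 2183 of 16088 with the latter. Of the 76 members, 58 had a log2 fold change below 0 and 4 above 0 on all 3 scales.

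**Figure D2:**
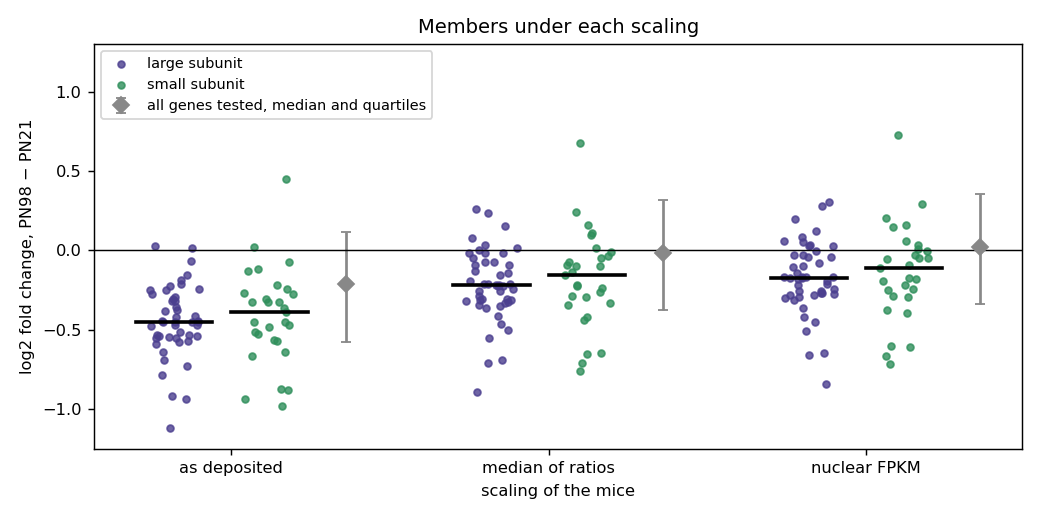
Log2 fold change (PN98 minus PN21, y axis) of each large subunit gene (purple) and small subunit gene (green) under 3 scalings of the mice (x axis), with black bars at the median of each subunit and a grey diamond with bars for the median and quartiles of all genes tested. The medians of all genes move from −0.21 to −0.017 and 0.023, and both subunits stay below them.

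The 2 subunits gave similar values. In the large subunit, 45 of 47 genes had a log2 fold change below 0, 19 were lower at an unadjusted *p* under 0.05 and 12 were lower without overlap between the ages. In the small subunit, these counts were 27, 8 and 4 of 29. The unadjusted shares were 40.4% and 27.6% for the large and small subunit, against 19.0% of all genes. Those without overlap were 25.5% and 13.8%, against 10.01%. The unadjusted counts fell to 0 and 0 with median of ratios scaling and to 1 and 2 with scaling to nuclear genes. With 1 mouse left out, the unadjusted count ran from 9 (without m49) to 27 (without m138) in the large and from 6 (without m49 or m106) to 18 (without m138) in the small subunit. The medians were −0.45 (quartiles −0.55 and −0.30) for the large and −0.39 (quartiles −0.56 and −0.27) for the small subunit, so that the ranges of the middle members overlapped almost wholly. Some symbols do not match the place of the protein in the particle: the products of *Mrps30* and *Mrps18a* sit in the large subunit, and that of *Mrps36* belongs to the 2-oxoglutarate dehydrogenase complex. Grouped by place, the medians were −0.45 and −0.42.

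The same was seen mouse by mouse. The mean log2(FPKM + 1) over the large subunit genes was 5.80, 6.08, 5.49 and 6.12 at PN21 and 5.18, 5.35, 5.54 and 5.62 at PN98. Over the small subunit genes it was 5.98, 6.19, 5.59 and 6.18 at PN21 and 5.31, 5.48, 5.67 and 5.85 at PN98. Mice that were high for one subunit were high for the other: m49 and m145 had the highest and m35 and m106 the lowest values, and PN21 mouse m138 lay within the range of the PN98 mice. The difference large minus small had at PN21 a mean of −0.115 ± 0.0492 and at PN98 one of −0.152 ± 0.0497 (SD over 4 mice), a shift of −0.0361 that is smaller than the SD within either age.

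The spread between mice of 1 age was large and shared by most members. PN98 mouse m35 held the lowest value of all 8 mice in 48 of 76 genes and m106 in 18, whereas m145 and m49 of PN21 held the highest in 36 and 35. Only 9 genes of PN21 mouse m138 lay above their mean over the 8 mice, against 61 to 74 in the other PN21 mice. As a share of the FPKM of all nuclear genes, MRP transcripts held 0.620, 0.599, 0.455 and 0.626% at PN21 and 0.383, 0.489, 0.580 and 0.640% at PN98. On this measure the ages overlapped fully, with the lowest share in m35 and the highest in m125, both of PN98. The mice with the lowest share of each age, m138 and m35, were also those with the highest summed lymphocyte markers and the lowest summed adipocyte markers of that age (14869.5 and 37403 FPKM). Most of these adipocyte sums was *Fabp4*, with 10641 FPKM in m138 and 27521 FPKM in m35. Of the PN98 mice, m35 was lowest in *Fabp4*, *Lipe*, *Retn* and *Cfd*, but not in *Adipoq*, *Plin1*, *Cidec* and *Lep*. The summed level of 7 brown adipocyte markers, *Ucp1* among them, was 3953, 4019, 3038 and 6459 FPKM at PN21 and 371, 2414, 1016 and 4228 FPKM at PN98, with m35 lowest and m125 highest among the PN98 mice in this as in the MRP share. Of the 10 lymphocyte markers 10, of the 7 brown adipocyte markers 6 and of the 8 adipocyte markers 0 had a log2 fold change below 0, against 67.0% of all genes. None of the markers was at 0 in all mice, and the part of these cells in the MRP values was not tested. The summed level of 8 skeletal muscle markers ran from 32.2 to 717 FPKM at PN21 and from 500.2 to 3334 FPKM at PN98, that of 6 epithelial markers from 1.87 to 43.6 and from 0.290 to 1.11 FPKM, and that of 7 proliferation markers from 70.0 to 119 and from 6.98 to 28.1 FPKM. The sums of the proliferation and of the epithelial markers did not overlap between the ages. With limma and an adjusted *p* under 0.05, 6 of 7 proliferation markers and 1 of 5 epithelial markers tested were lower, against 2.93% of all genes. Higher were 2 of 8 muscle and 3 of 8 adipocyte markers, against 2.35% of all genes. Of the lymphocyte and brown adipocyte markers, 0 were called.

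**Figure D3:**
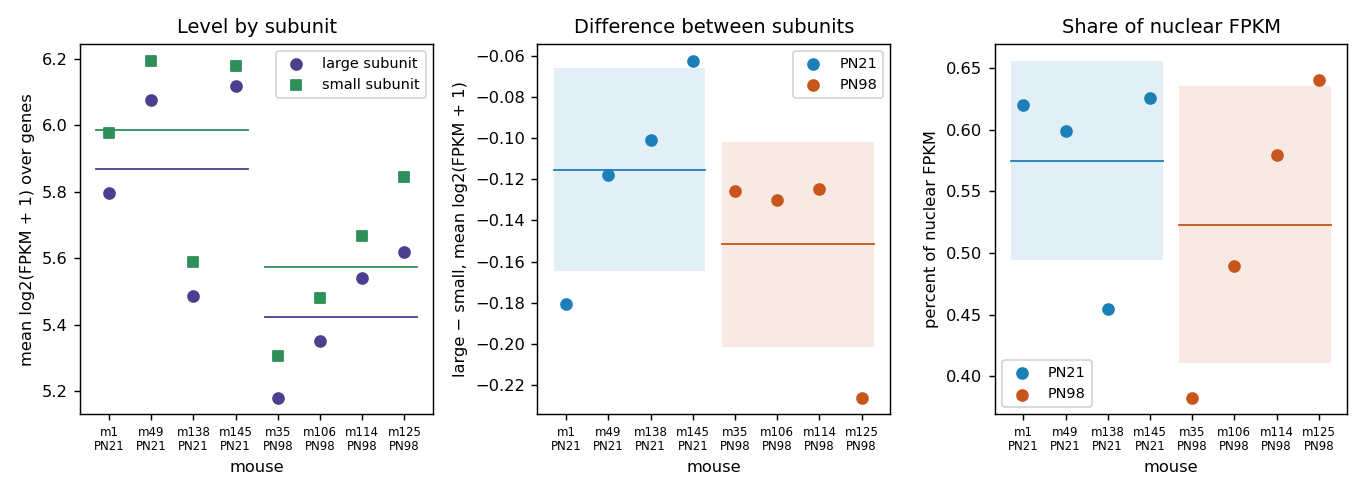
Left, mean log2(FPKM + 1) over large subunit genes (circles) and small subunit genes (squares) in each mouse, with lines at the mean of each age. Middle and right, the difference large minus small and the percent of nuclear FPKM held by MRP genes, with the mean (line) and 1 SD (band) of 4 mice per age; the subunits rise and sink together from mouse to mouse and the share of m125 at PN98 (0.640%) exceeds that of every PN21 mouse.

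Of the members, 75 have a position in the GENCODE vM21 annotation of GRCm38, on 17 chromosomes and with 0 on X, so that the genes are scattered over the genome. Promoter windows from RefSeq (GRCm38.p6; 250 bases before to 50 bases after a transcript start) were matched by symbol for 67 members, 73 windows in all. They were searched on both strands for 3 motifs of factors known to act on nuclear genes for mitochondrial proteins: CCGGAAG of the ETS family, to which GABP belongs, GCGCANGCG of NRF1 and AAGATGGCG of YY1. The ETS motif was found in 24 of 73 windows (32.9%) against 8.86% of all 32851 windows, the NRF1 motif in 15 (20.5% against 6.25%) and the YY1 motif in 8 (10.96% against 1.40%). At least 1 of the 3 was in 40 windows (54.8% against 14.8%), and 7 windows held 2 of them. A match of letters is not a binding site, and some windows share bases, such as those of *Mrpl46* and *Mrps11*. The median log2 fold change was −0.48 over members with and −0.42 over members without the ETS motif, −0.31 and −0.45 for NRF1, and −0.49 and −0.44 for YY1.

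The windows of 4 members are shown on the strand of the gene and from 5′ to 3′, with matches to these motifs in capitals. *Mrpl12* (chr11:120484387-120484686, plus strand), with the lowest log2 fold change, holds an NRF1 match that starts 80 bases before the transcript start. *Mrps22* (chr9:98601630-98601929, minus strand), with the lowest adjusted *p* of the small subunit, holds an ETS match 11 bases before it. *Mrps18a* (chr17:46110754-46111053, plus strand), a paralog with an adjusted *p* of 0.301 (limma), holds an ETS match 26 bases before and a YY1 match from base 12 after it. *Mrps6* (chr16:92058086-92058385, plus strand), with the highest log2 fold change, holds none of the 3.
Mrpl12: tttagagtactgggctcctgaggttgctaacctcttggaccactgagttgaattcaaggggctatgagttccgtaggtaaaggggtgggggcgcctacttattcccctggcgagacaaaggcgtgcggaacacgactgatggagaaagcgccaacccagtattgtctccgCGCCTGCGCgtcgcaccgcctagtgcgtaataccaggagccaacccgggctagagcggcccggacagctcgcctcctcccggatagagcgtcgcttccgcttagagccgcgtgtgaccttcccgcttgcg
Mrps22: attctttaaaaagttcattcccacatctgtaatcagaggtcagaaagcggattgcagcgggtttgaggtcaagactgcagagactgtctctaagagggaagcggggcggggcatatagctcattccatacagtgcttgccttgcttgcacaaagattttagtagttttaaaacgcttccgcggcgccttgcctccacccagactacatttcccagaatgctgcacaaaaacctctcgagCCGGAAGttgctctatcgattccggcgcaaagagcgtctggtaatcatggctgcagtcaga
Mrps18a: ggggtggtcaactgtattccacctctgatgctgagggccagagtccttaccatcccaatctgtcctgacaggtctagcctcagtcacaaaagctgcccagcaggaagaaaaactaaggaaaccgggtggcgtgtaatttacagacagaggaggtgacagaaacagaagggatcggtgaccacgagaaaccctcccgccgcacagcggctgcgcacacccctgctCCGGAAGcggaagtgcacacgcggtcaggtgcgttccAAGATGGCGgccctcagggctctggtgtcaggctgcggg
Mrps6: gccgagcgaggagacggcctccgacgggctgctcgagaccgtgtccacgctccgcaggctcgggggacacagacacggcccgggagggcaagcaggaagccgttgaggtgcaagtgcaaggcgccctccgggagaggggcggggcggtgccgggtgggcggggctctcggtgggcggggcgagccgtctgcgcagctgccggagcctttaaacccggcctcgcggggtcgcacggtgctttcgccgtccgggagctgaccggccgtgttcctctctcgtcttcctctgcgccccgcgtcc

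Among the large subunit genes, *Mrpl12* differed most. Its product forms the flexible stalk that contacts translation factors. *Mrpl12* had 157, 168, 87.7 and 163 FPKM at PN21 and 38.9, 56.8, 74.8 and 98.8 FPKM at PN98 (log2 fold change −1.12, SE 0.33, limma BH-adjusted *p* = 0.0879). 3 of the PN21 mice lay well above all PN98 mice, whereas m138 lay below m125. The other stalk genes differed less: *Mrpl10*, *Mrpl11*, *Mrpl53* and *Mrpl54* had log2 fold changes of −0.22, −0.066, −0.45 and −0.32, and the values of the 2 ages overlapped in each.

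*Mrpl34*, a small protein of the large subunit with a bacterial counterpart, had 113, 146, 72.7 and 156 FPKM at PN21 and 39.5, 63.7, 58.5 and 91.3 FPKM at PN98 (log2 fold change −0.94, SE 0.32, limma BH-adjusted *p* = 0.120). *Mrpl47*, which lies near the exit of the polypeptide tunnel, had 35.2, 57.8, 27.2 and 48.4 FPKM at PN21 and 13.6, 22.8, 22.4 and 27.6 FPKM at PN98 (log2 fold change −0.92, SE 0.29, limma BH-adjusted *p* = 0.104). In both genes the ages overlapped only through m138 and m125. *Mrpl15*, with a bacterial counterpart as well, did not overlap between the ages, with 64.0, 102, 58.5 and 82.6 FPKM at PN21 and 36.3, 49.1, 40.3 and 56.2 FPKM at PN98 (log2 fold change −0.73, SE 0.23, limma BH-adjusted *p* = 0.0994). *Mrpl52*, which has no bacterial counterpart, had 149, 160.1, 124.7 and 359 FPKM at PN21 and 123, 76.7, 120.1 and 105 FPKM at PN98 (log2 fold change −0.78, SE 0.34, limma BH-adjusted *p* = 0.181). Here 1 PN21 mouse, m145, stood far above all others, and without it the log2 fold change was −0.46, while the lowest PN21 value lay just above the highest PN98 value. *Mrpl19* had the lowest adjusted *p* of the family, with 25.4, 39.9, 27.7 and 26.1 FPKM at PN21 and 17.9, 15.9, 19.5 and 18.1 FPKM at PN98 (log2 fold change −0.69, SE 0.18, limma BH-adjusted *p* = 0.0647). Its PN98 mice lay close together and below every PN21 mouse.

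*Mrpl37*, without a bacterial counterpart, had 62.6, 68.0, 51.8 and 70.0 FPKM at PN21 and 38.7, 41.5, 47.4 and 45.2 FPKM at PN98 (log2 fold change −0.53, SE 0.15, limma BH-adjusted *p* = 0.0858). *Mrpl3*, with one, had 35.6, 45.5, 33.8 and 38.4 FPKM at PN21 and 21.7, 27.1, 26.2 and 28.1 FPKM at PN98 (log2 fold change −0.55, SE 0.16, limma BH-adjusted *p* = 0.0836). *Mrpl24*, also with one, had 86.5, 107, 93.5 and 109 FPKM at PN21 and 83.9, 72.8, 70.2 and 63.3 FPKM at PN98 (log2 fold change −0.44, SE 0.15, limma BH-adjusted *p* = 0.124). All 3 were named after their values were seen, and in each the highest PN98 mouse lay below the lowest PN21 mouse.

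Genes of the polypeptide exit all pointed the same way in the values as deposited. *Mrpl17*, *Mrpl22*, *Mrpl23*, *Mrpl24*, *Mrpl45* and *Mrpl47* all had a log2 fold change below 0 (67.0% of all genes), with a median of −0.51. Of these 6, 5 had an unadjusted *p* under 0.05 (2 without m49, 3 without m35, m106 or m145), against 19.0% of all genes. The ages did not overlap in 3, against 10.01% of all genes lower without overlap. In *Mrpl23*, 1 of the 3, they nearly met, with 27.2704 FPKM in the highest PN98 mouse and 27.2771 FPKM in the lowest PN21 mouse. On either scaling, 0 of 6 were lower at an unadjusted *p* under 0.05. With scaling to nuclear genes *Mrpl17* was above 0, at 0.031. *Mrpl45*, whose product ties the ribosome to the inner membrane, had 20.2, 25.6, 16.7 and 23.3 FPKM at PN21 and 14.6, 14.7, 13.97 and 16.7 FPKM at PN98 (log2 fold change −0.48, SE 0.17, limma BH-adjusted *p* = 0.128). The highest PN98 mouse lay below the lowest PN21 mouse by less than the rounding of these values. In the central protuberance (*Mrpl18*, *Mrpl27*, *Mrpl38*, *Mrpl40*, *Mrpl46*, *Mrpl48* and *Mrpl55*), the median was −0.44 and 6 of 7 genes were below 0 (5 with protein-coding transcripts only). The exception was *Mrpl40*, with 44.3, 48.98, 36.2 and 45.3 FPKM at PN21 and 40.5, 38.98, 54.9 and 44.8 FPKM at PN98 (log2 fold change 0.030, SE 0.17, limma BH-adjusted *p* = 0.924). *Mrpl50*, without a bacterial counterpart, and *Mrpl11*, of the stalk base, were the other large subunit genes with the highest log2 fold changes, at 0.012 (SE 0.25) and −0.066 (SE 0.20). The ages overlapped in all 3.

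In the small subunit, *Mrps2*, *Mrps36*, *Mrps16*, *Mrps22* and *Mrps5* had the lowest log2 fold changes. *Mrps2*, with a bacterial counterpart, had 24.1, 38.0, 18.7 and 18.7 FPKM at PN21 and 7.60, 15.4, 9.81 and 15.4 FPKM at PN98 (log2 fold change −0.98, SE 0.30, limma BH-adjusted *p* = 0.0986). *Mrps22*, found only in mitochondrial ribosomes, had 32.9, 38.8, 21.0 and 31.1 FPKM at PN21 and 12.2, 14.996, 19.0 and 18.9 FPKM at PN98 (log2 fold change −0.88, SE 0.23, limma BH-adjusted *p* = 0.0666). *Mrps5*, whose bacterial counterpart takes part in accurate decoding, had 82.8, 96.2, 67.3 and 65.9 FPKM at PN21 and 39.3, 41.7, 51.2 and 64.0 FPKM at PN98 (log2 fold change −0.67, SE 0.21, limma BH-adjusted *p* = 0.101). In these 3 genes every PN98 mouse was below every PN21 mouse. *Mrps16* had 81.4 to 187 FPKM at PN21 and 56.1 to 88.7 FPKM at PN98 (log2 fold change −0.88, SE 0.28, limma BH-adjusted *p* = 0.104), with overlap. *Mrps36*, the member that is no part of the ribosome, had 33.1 to 56.4 FPKM at PN21 and 14.1 to 38.0 FPKM at PN98 (log2 fold change −0.94, SE 0.30, limma BH-adjusted *p* = 0.109), and also overlapped.

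*Mrps12*, a protein of the decoding site, had 126, 129.9, 86.3 and 154 FPKM at PN21 and 81.7, 78.8, 116 and 82.3 FPKM at PN98 (log2 fold change −0.45, SE 0.22, limma BH-adjusted *p* = 0.220). PN98 mouse m114 had more than PN21 mouse m138, so the ages overlapped. The 3 paralogs *Mrps18a*, *Mrps18b* and *Mrps18c*, which occupy different places in the particle, had log2 fold changes of −0.32, −0.12 and −0.27 with SEs of 0.20, 0.21 and 0.26. Their levels were 61.8 ± 12.8 FPKM at PN21 and 48.6 ± 6.18 FPKM at PN98 for *Mrps18a*, 45.6 ± 10.8 FPKM at PN21 and 41.8 ± 7.39 FPKM at PN98 for *Mrps18b* and 107 ± 41.8 FPKM at PN21 and 84.4 ± 7.23 FPKM at PN98 for *Mrps18c* (mean ± SD, n = 4). The differences between ages were within the SD at PN21 in *Mrps18b* and *Mrps18c*, and with scaling to nuclear genes the log2 fold changes of both were above 0 (0.16 and 0.0099). *Mrps30*, also of the large subunit by place, had 24.5 to 35.7 FPKM at PN21 and 20.7 to 31.2 FPKM at PN98 (log2 fold change −0.33, SE 0.19, limma BH-adjusted *p* = 0.279).

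*Mrps6* was the only member with a log2 fold change more than its SE above 0. It had 99.9, 103, 62.9 and 104 FPKM at PN21 and 121, 122, 167 and 95.7 FPKM at PN98 (log2 fold change 0.45, SE 0.24, limma BH-adjusted *p* = 0.244). 3 PN98 mice lay above all PN21 mice, whereas m125 lay below all PN21 mice but m138. With median of ratios scaling the log2 fold change was 0.68 and with scaling to nuclear genes 0.73, but *Mrps6* did not pass the adjustment on either scale. *Mrps10* and *Mrps33*, next in order, had 0.020 (SE 0.18) and −0.072 (SE 0.20), with overlap between the ages.

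**Figure D4:**
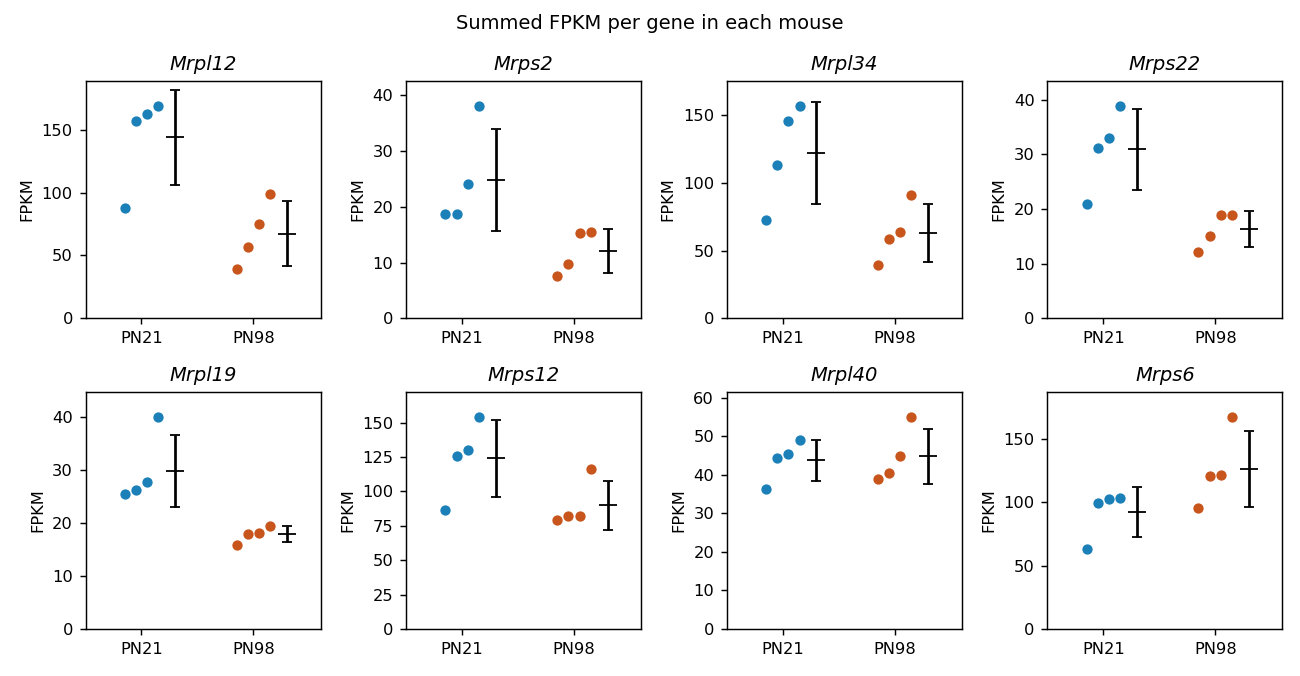
Summed FPKM (y axis, from 0) of 8 MRP genes in each of the 4 mice at PN21 (blue) and PN98 (orange), with the mean and SD of each age in black. *Mrps2*, *Mrps22* and *Mrpl19* do not overlap between the ages, *Mrpl12*, *Mrpl34* and *Mrps12* do through 1 mouse of either age, *Mrpl40* is alike and *Mrps6* lies higher in 3 of the 4 PN98 mice.

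Members with and without a bacterial counterpart had similar medians. Counterparts were taken from the common naming of ribosomal proteins, which of the *Mrps18* paralogs gives one to *Mrps18c* only. The median log2 fold change was −0.45 over the 46 members with a bacterial counterpart and −0.45 over the 30 without one. Of these, 18 (39.1%) and 9 (30%) were lower at an unadjusted *p* under 0.05, against 19.0% of all genes. With median of ratios scaling the counts were 0 and 0, against 11.6% of all genes. With scaling to nuclear genes they were 2 and 1, against 8.66% of all genes.

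Several transcripts contributed to most members. 55 genes had more than 1 transcript in the table and *Mrps* or *Mrpl* genes had up to 11. Of the FPKM of all members, 64.0% stood on transcripts that GENCODE vM21 types as protein coding, and in 25 genes this was less than 50%. In *Mrpl2*, 77.9% of the level came from a processed transcript of 212 bases. In *Mrps26*, 99.2% came from a transcript typed as a retained intron, and in *Mrpl47* 88.4% from a processed transcript. The log2 fold change of *Mrpl47* was −0.92 over all its transcripts and −0.56 over the coding one. The types are those of vM21, which is not the release the authors used, and 212 of 249 member transcripts had the same start and end in both. The high rank of *Mrpl2* and *Mrpl18* in level thus rests for the most part on transcripts that are not typed as coding, whereas 99.2% of *Mrps21* and 88.7% of *Mrpl12* was coding. When only transcripts typed as protein coding were summed, 73 members passed the filter, 68 of them had a log2 fold change below 0 (93.2% against 64.6% of all genes), the median was −0.41 against −0.17, and 3 were lower with an adjusted *p* under 0.05 (limma with BH adjustment), namely *Mrpl37*, *Mrpl19* and *Mrps22*. These are 4.11% of the members tested, against 4.80% of all genes. On coding transcripts alone the sign turned in *Mrpl38* (from −0.44 to 0.11), *Mrps14* (from −0.13 to 0.23) and *Mrps10* (from 0.020 to −0.011). Coding and other transcripts of the family stood at similar ratios between the ages: the coding ones summed to 3897 FPKM at PN21 and 2889 FPKM at PN98, the others to 2219.8 and 1594 FPKM.

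**Figure D5:**
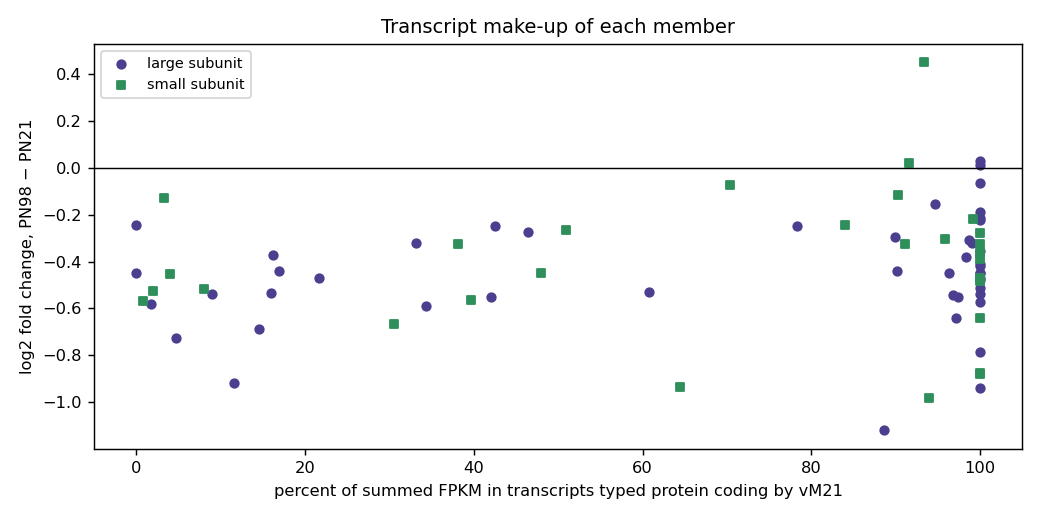
Log2 fold change (PN98 minus PN21, y axis) of each large subunit gene (circles) and small subunit gene (squares) against the percent of its summed FPKM on transcripts typed as protein coding (x axis). Values below 0 are found over the whole range, from members at 0% to the 27 members at 100%.

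Genes that work with the MRP genes were listed by role. Some further subunits carry other names. All 6 had a log2 fold change below 0, against 67.0% of all genes (median −0.50 against −0.21). With either scaling 5 of the 6 were below 0. An unadjusted *p* under 0.05 was found in 3 (0 without m49, 1 without m1, m106 or m145), against 19.0% of all genes lower. On either scaling this count was 0, and after adjustment 0 were called. *Dap3*, a GTP-binding protein of the small subunit, did not overlap between the ages, with 95.3, 124, 91.5 and 133 FPKM at PN21 and 77.5, 68.9, 88.5 and 75.7 FPKM at PN98 (log2 fold change −0.50, SE 0.18, limma BH-adjusted *p* = 0.130). *Ict1* (also named *Mrpl58*), which frees stalled chains and sits in the large subunit, had 133, 161, 89.2 and 154 FPKM at PN21 and 83.0, 72.5, 96.6 and 95.4 FPKM at PN98 (log2 fold change −0.59, SE 0.22, limma BH-adjusted *p* = 0.138).

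Assembly factors gave 1 call. Of 24 tested (*Ybey* was below the filter), 20 had a log2 fold change below 0 (83.3% against 67.0% of all genes). Their median was −0.20 (quartiles −0.41 and −0.091), against −0.21 over all genes. With an adjusted *p* under 0.05, 1 (4.17%) was called lower, against 2.93% of all genes, and 0 higher. The call was *C1qbp*, a matrix protein needed for mitochondrial translation, named after its values were seen, which fell from 108 ± 18.9 FPKM at PN21 to 59.7 ± 8.38 FPKM at PN98 (mean ± SD, n = 4; log2 fold change −0.84, SE 0.18, limma BH-adjusted *p* = 0.0385). With either scaling, 0 assembly factors were called and 11 and 8 of 24 had a log2 fold change below 0 (median of ratios and nuclear genes). *C1qbp* was also not called with any single mouse other than m35 left out, nor with protein-coding transcripts only. In the list, 2 factors (9.09%) were called lower with protein-coding transcripts only, against 4.80% of all genes. With arrayWeights the count was 5 (20.8%), against 21.7% of all genes. *Fastkd2*, an RNA-binding protein that acts on the large ribosomal RNA, had 18.3, 38.0, 24.6 and 33.3 FPKM at PN21 and 10.3, 16.3, 13.4 and 13.9 FPKM at PN98 (log2 fold change −0.997, SE 0.25, limma BH-adjusted *p* = 0.0602). *C1qbp* and *Fastkd2* had every PN98 mouse below every PN21 mouse. *Gtpbp10*, a GTPase of large subunit assembly, was the only one of the list with every PN98 mouse above every PN21 mouse, at 2.96 to 3.96 FPKM at PN21 and 4.01 to 4.52 FPKM at PN98 (log2 fold change 0.21, SE 0.14, limma BH-adjusted *p* = 0.324).

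Among 13 mitochondrial translation factors, 12 had a log2 fold change below 0 (92.3% against 67.0% of all genes). Their median was −0.42, against −0.21 over all genes. With median of ratios scaling 10 were below 0 (76.9% against 51.3% of all genes), and with scaling to nuclear genes 8 (61.5% against 48.3%). At an unadjusted *p* under 0.05, 5 (38.5%) were lower, against 19.0% of all genes, and 0 on either scaling. After adjustment, 0 were lower. Without m145, *Mtif2* passed the adjustment (7.69% of the list, against 1.25% of all genes called lower). Without m35, *Taco1* and *Tufm*, the elongation factor, did (15.4% against 18.1% of all genes). *Tufm* lay near the filter, with a mean of 1.22 FPKM over the 8 mice. The initiation factor *Mtif2* had 29.96, 36.7, 28.3 and 20.6 FPKM at PN21 and 16.4, 18.8, 15.8 and 17.9 FPKM at PN98 (log2 fold change −0.69, SE 0.19, limma BH-adjusted *p* = 0.0784). *Taco1*, which activates translation of the messenger RNA of cytochrome oxidase subunit I, had 20.2, 25.6, 17.9 and 15.7 FPKM at PN21 and 7.12, 12.1, 10.7 and 11.9 FPKM at PN98 (log2 fold change −0.87, SE 0.22, limma BH-adjusted *p* = 0.0596). Neither overlapped between the ages. The release factor *Mtrf1* was the only factor with a log2 fold change above 0, at 0.049 (SE 0.17).

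Other large families of the same samples had lower medians. In the values as deposited, the median log2 fold change was −0.80 over 75 cytosolic ribosomal protein genes, −0.57 over 79 nuclear OXPHOS subunit genes, −0.45 over the 76 MRP genes and −0.21 over all genes. With median of ratios scaling, these were −0.57, −0.34, −0.22 and −0.017, in the same order. Without m125, the median of the OXPHOS genes lay below that of the cytosolic ribosomal proteins. In the values as deposited, genes lower without overlap between the ages were 5 of 75, 3 of 79 and 16 of 76, in the same order. Of all genes, 10.01% were lower without overlap. The cytosolic ribosomal protein genes and the OXPHOS genes lay below this share, and the MRP genes lay above it. The differences between these families were not tested.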

How the data were processed

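ING WAT of 4 mice per age had been sequenced as paired-end reads of poly(A)+ RNA. According to the methods and processing notes, the authors mapped reads to mm10 with STAR 2.3.0 and quantified Ensembl transcripts with Cufflinks 2.1.1, and they deposited 1 FPKM value per transcript and mouse. In 40441 of 91969 transcripts a value had lost its decimal mark. The marks were restored from the standard deviation, average and score deposited beside the values, which left 1 reading in 40416 transcripts. By their values these summaries cover 10 libraries, 2 more than the 8 mice analysed here. All 5022 restored transcripts that the deposited table of the age comparison also lists were equal to it within 0.005 (relative) in all 8 mice. Of the 25 others, 10 were taken from that table and 15 left out, none from an MRP gene; its fold changes and p-values were not used. Transcripts were assigned to genes by GENCODE vM21 (1304 of no single gene were not used), and FPKM was summed. *Mrpl33* is absent from vM21 by identifier and was summed over 2 transcripts. How reads shared with the 4 MRP pseudogenes in the table were assigned is not given in the sources used here.

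Genes whose mean reached 1 FPKM were compared with limma 3.58.1 (R 4.3.3) on log2(FPKM + 1), with BH adjustment over all genes. On this scale the change of low genes is understated. Litters and batches of the mice are not given in the sources used here. Named are the 5 members of either subunit with the lowest and the 3 with the highest log2 fold change, the 5 highest and 3 lowest in level, any with an adjusted p under 0.05, and 9 chosen for their known roles (*Mrpl12*, *Mrps12*, *Mrpl45*, *Mrpl58*, *Mrps30*, *Mrps36* and the *Mrps18* paralogs). The members and lists were chosen with earlier results of these data known. Alternatives were 2 scalings, another pseudocount and filters, arrayWeights, a variance trend, single transcripts, subunits by structure and leaving out each mouse. Protein-coding transcripts alone and the joint omission of m35 and m138 were added after seeing the data. *Mtg2* was not found.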

Additional observations from a re-analysis of the deposited data

Results flagged for a closer look

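In 66 groups of 4 mice, the highest or lowest mouse was compared with the other 3 by Dixon's ratio of its gap to the whole range and its 95% critical value. Chance alone gives about 1 in 20 such groups, and 5 were found. *Mrpl12* was 87.7 FPKM in PN21 mouse m138 against 157 to 168 FPKM in the other PN21 mice. *Mrps6* was 62.9 FPKM in the same mouse against 99.9 to 104 FPKM. *Mrpl52* was 359 FPKM in PN21 mouse m145 against 124.7 to 160.1 FPKM. *Mrps12* was 116 FPKM in PN98 mouse m114 against 78.8 to 82.3 FPKM. The difference large minus small subunit in mean log2(FPKM + 1) was −0.226 in PN98 mouse m125 against −0.130 to −0.125 in the other PN98 mice.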

How the results depend on the processing

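The count of genes called lower was 0 as reported, 26 with arrayWeights, 3 with protein-coding transcripts only, and 0 to 3 with mice left out, the highest without both m35 and m138. Of all genes, 21.7% were called with arrayWeights, 4.80% with protein-coding transcripts only, 18.1% without m35 and 9.37% without both mice, and in the last 3 of these the MRP share was below that of all genes. The MRP count stayed at 0 with both scalings, the pseudocount of 0.1, no filter, a mean FPKM of at least 5, the variance trend and single transcripts, and 0 genes were called higher in any setting. With scaling to nuclear genes the median moved to −0.17 over all members, −0.17 in the large and −0.11 in the small subunit. With a mouse left out, it lay between −0.55 and −0.36, with 70 to 75 genes below 0. Some members changed sign. On the 3 scales, 62 of the 76 members kept the same direction, and only part of the others is listed here. With median of ratios scaling and scaling to nuclear genes, in that order, log2 fold changes were 0.15 and 0.20 in *Mrpl11*, 0.16 and 0.20 in *Mrps33*, 0.013 and 0.061 in *Mrps21*, and 0.11 and 0.16 in *Mrps18b*, and with scaling to nuclear genes alone 0.031 in *Mrpl17* and 0.0099 in *Mrps18c*. With arrayWeights they were −0.069 in *Mrpl40* and −0.012 in *Mrps10*, and with protein-coding transcripts only −0.011 in *Mrps10*, 0.11 in *Mrpl38* and 0.23 in *Mrps14*. With a mouse left out they ran from −0.19 to 0.056 in *Mrpl11*, −0.11 to 0.22 in *Mrpl50*, −0.070 to 0.091 in *Mrpl40*, −0.18 to 0.027 in *Mrps33*, −0.092 to 0.11 in *Mrps10* and −0.20 to 0.026 in *Mrps18b*. Without a change of sign they ran from −1.04 to −0.46 in *Mrpl52*, −0.63 to −0.13 in *Mrpl33*, −0.52 to −0.26 in *Mrpl35*, −0.41 to −0.13 in *Mrpl17*, 0.28 to 0.57 in *Mrps6*, −0.44 to −0.038 in *Mrps18c* and −0.40 to −0.030 in *Mrps21*. The cause of these changes was not tested. No paired analysis was possible because the PN21 and PN98 mice were different animals, and the labels do not link them. The files hold no read counts, and 4 mice per age limit what can be called.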
